A study of Mus musculus with 8 samples.

Results

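Distal mouse chromosome 4 carries a tandem cluster of zinc finger genes, and the 10 members described here are Zfp979, Zfp981, Zfp982, Zfp984, Zfp985, Zfp986, Zfp987, Zfp988, Zfp990 and Zfp992. They were found by symbol among the 39017 genes of a count table, and all 10 were in it. The members were chosen by place and family with their mutant and wild type counts in view, so that comparison is given for them as a description with no test. The groups differed in which paralogs gave the reads: Zfp990 was well detected in wild type and near the floor in mutants, Zfp984 and Zfp979 were higher in mutants, and Zfp992 was present in both.

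RNA came from tdTomato-positive cells sorted from hand-dissected cochlear nuclei of mouse embryos at E18.5. The cochlear nucleus is the hindbrain station that receives the auditory nerve. The 4 wild type libraries were Math1::Cre; Rosa tdTomato. The 4 mutant libraries carried the same 2 transgenes and floxed alleles of the hindbrain patterning genes Hoxa2 and Hoxb2, written as Hoxa2+/fl; Hoxb2fl/fl in the sample titles but as Hoxa2fl/fl; Hoxb2fl/fl in the description of the design. Math1, also called Atoh1, drives the Cre, so recombination is limited to the Math1 lineage and cells outside it keep both Hox genes. All samples are labelled C57BL/6. Each held 30000 cells pooled from 3 littermate embryos, and each came from a different mother. Libraries are named by group and by the running number of their column, mutant 1 to 4 and wild type 5 to 8.

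Zinc finger proteins of the KRAB class bind DNA through an array of finger repeats and recruit the corepressor TRIM28, which brings histone methylation and heterochromatin. Many of them silence transposable elements, and their genes lie in clusters that grow by tandem duplication and differ between inbred strains in copy number and sequence. Neighbouring copies are therefore close in sequence, and a short read can match more than 1 of them. The sources used here do not say how reads with several matches were counted. A count table holds no base calls, so whether the embryos of both groups carried the same version of this region was not tested.

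The members lie between chr4:145510759 and chr4:147809788 (mm10), a span of 2.3 Mb. In order along the chromosome, Zfp990 (ENSMUSG00000078503) lies at 145510759 to 145539188 and Zfp986 at 145868794 to 145899975. Zfp987 follows at 146097298 to 146126621, Zfp992 (ENSMUSG00000070605) at 146449023 to 146470292 and Zfp981 at 146502027 to 146539395. Zfp988 lies at 147305674 to 147333734, Zfp982 at 147492417 to 147513486 and Zfp985 at 147553277 to 147585198, and these 8 genes are on the plus strand. Zfp979 (ENSMUSG00000066000) at 147611937 to 147642513 and Zfp984 (ENSMUSG00000078495) at 147753974 to 147809788 are on the minus strand. All 10 are annotated as protein coding. The genes deposited under these symbols have the exon lengths of GENCODE M21 in all 10 cases. Zfp984 shares 282 exon bases with the gene model Gm20707, and the other 9 share none, although Zfp992, Zfp981, Zfp988 and Zfp979 have other genes within their introns. Strand was not stated for the counting, so reads of overlapping genes cannot be told apart.

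The likeness of the paralogs is visible in the finger repeats, each of which encodes 1 zinc finger and the linker after it. Repeats were found by a strict in-frame pattern of cysteine and histidine codons, so fingers that depart from it are not counted. For the 4 members with the most reads, 1 repeat of 84 bases is shown from the GENCODE M21 coding sequence, 5′ to 3′. For Zfp984 it is repeat 6 of 11 (coding bases 1138 to 1221), and for the others the repeat closest to it, with capitals at the bases that differ from Zfp984.

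Zfp984: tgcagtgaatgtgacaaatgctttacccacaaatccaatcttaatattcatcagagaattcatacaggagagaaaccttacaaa

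Zfp992: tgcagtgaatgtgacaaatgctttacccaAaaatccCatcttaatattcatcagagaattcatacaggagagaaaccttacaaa

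Zfp990: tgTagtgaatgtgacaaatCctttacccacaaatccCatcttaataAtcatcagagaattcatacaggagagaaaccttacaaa

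Zfp979: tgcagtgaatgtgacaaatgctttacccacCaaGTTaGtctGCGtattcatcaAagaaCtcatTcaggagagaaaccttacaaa

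Repeat 4 of 11 in Zfp992 differed from the Zfp984 repeat at 2 bases (97.6% identical). Repeat 4 of 13 in Zfp990 differed at 4 bases (95.2% identical). The last of the 3 repeats found in Zfp979 differed at 11 bases (86.9% identical), and those changes fall mainly in the middle of the repeat. The run at the 3′ end, which holds most of the linker, is shared by all 4 genes.

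Over the aligned bases of their coding sequences the 45 pairs of members were 79.3% to 99.3% identical, with a median of 89.9%. Gaps and unaligned ends were not scored, and at least 95.1% of the shorter sequence was aligned. Zfp986 was compared with Zfp987 and Zfp988 over 1204 bases, where each of these has 1902 coding bases. Zfp986, Zfp987 and Zfp988 formed the closest trio, at 99.3% for Zfp986 and Zfp988, 99.2% for Zfp986 and Zfp987 and 98.7% for Zfp987 and Zfp988. Zfp984 was 92.9% identical to Zfp990, 90.7% to Zfp992 and 82.5% to Zfp979. The number of finger repeats that match the pattern ran from 3 in Zfp979 to 14 in Zfp987 and Zfp988. It was 7 in Zfp981 and Zfp982, 10 in Zfp985, 11 in Zfp984 and Zfp992 and 13 in Zfp990. The coding model of Zfp986 is incomplete and held 5.

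**Figure D1:**
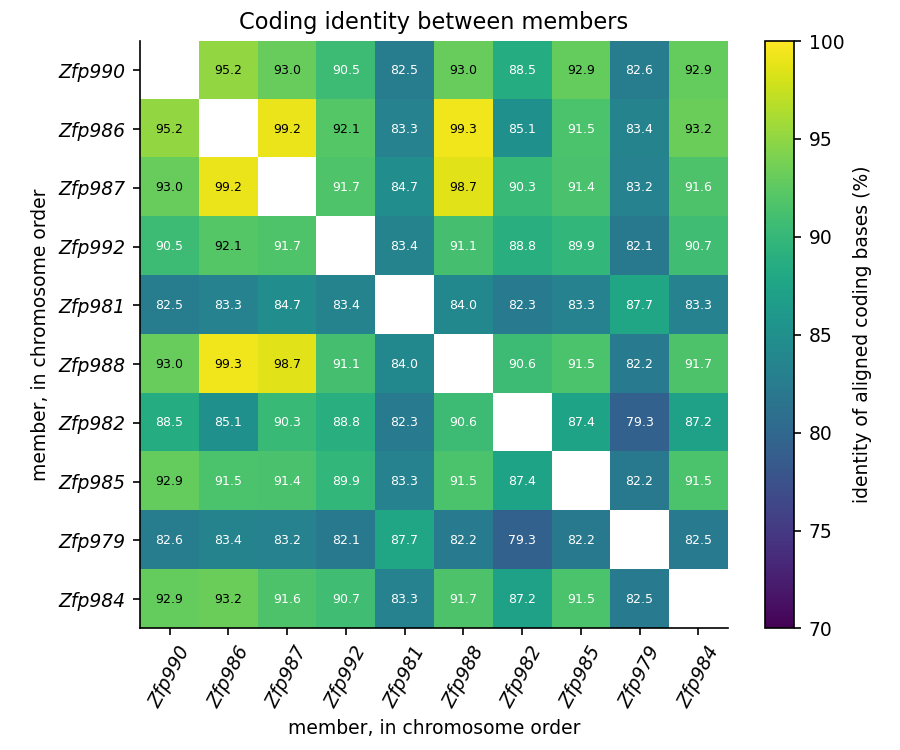
Nucleotide identity of the aligned coding bases of the 10 members, in percent, for every pair, with gaps and unaligned ends not scored. Zfp986, Zfp987 and Zfp988 form the block of highest identity, at 98.7% to 99.3%, and the lowest pair is at 79.3%.

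To see what a read of ordinary length can tell apart, each member's annotated transcripts were split into overlapping windows of 50 bases, and windows found in no transcript of another gene were counted. That share was 72.9% for Zfp979, 70.9% for Zfp990, 57.0% for Zfp992 and 45.5% for Zfp984. It was lowest in the close trio, at 11.0% for Zfp987, 13.6% for Zfp986 and 31.9% for Zfp988, and highest in Zfp985 (84.1%) and Zfp982 (88.1%), with Zfp981 at 59.98%. With windows of 100 bases the shares were 78.5% for Zfp979, 96.4% for Zfp990, 71.4% for Zfp992 and 69.1% for Zfp984. Only transcripts were compared, so matches to unannotated copies in the genome are not included.

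The shared windows lead to particular partners. For Zfp984, 46.9% of its windows also occur in Gm13212, 13.4% in Gm13147 and 2.35% in Zfp990. For Zfp992, 37.5% occur in Zfp991 and 36.2% in the pseudogene Znf41-ps. Zfp979 shares 18.9% with Zfp600 and 14.5% with Rex2. Zfp990 shares 13.1% with Zfp987 and 12.6% with Zfp534. For Zfp987 the closest partner is off the cluster, Gm8935 on chromosome 3, with 73.4%.

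**Figure D2:**
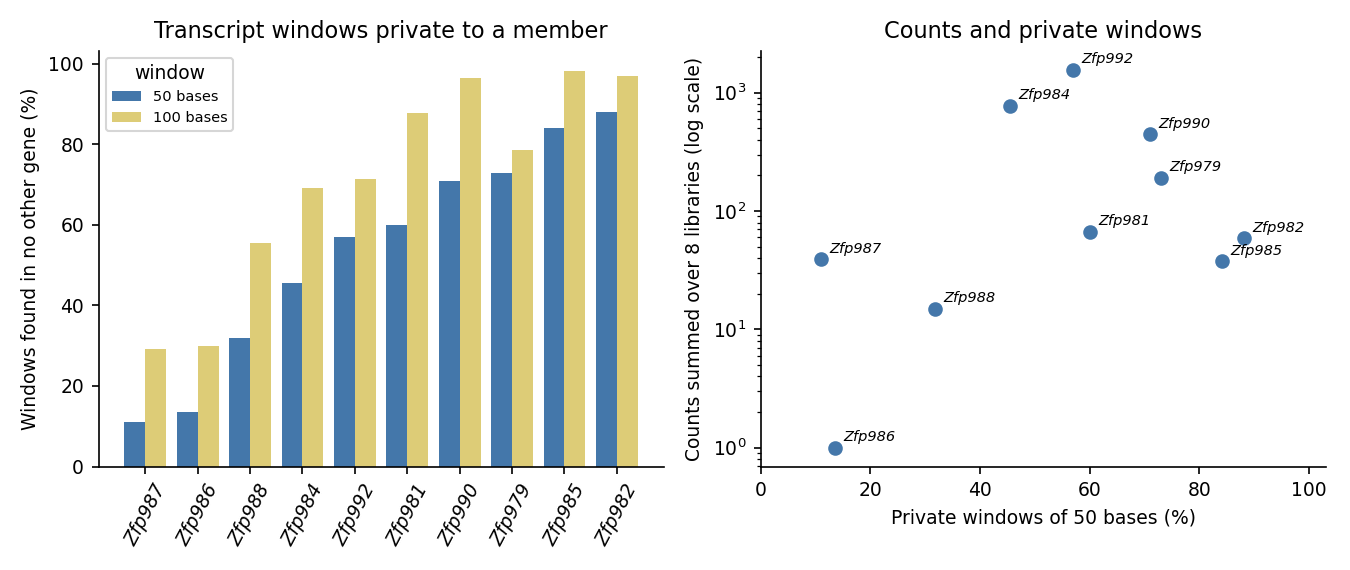
Percent of windows of 50 and of 100 bases of each member's transcripts that occur in no annotated transcript of another gene. At 50 bases Zfp987 and Zfp986 have the fewest (11.0% and 13.6%) and Zfp982 the most (88.1%), and the second panel sets these shares beside the counts summed over the 8 libraries on a log scale, where Zfp992 is highest at 1567.

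Total counts ranged from 24789043 to 51118195 per library, and 19494 genes passed the filter on low counts. At a Benjamini-Hochberg adjusted p below 0.05 in edgeR's quasi-likelihood test, 70 genes differed, 28 higher and 42 lower in mutants. Levels are in CPM, counts scaled by TMM to a common library total. Hoxb2, whose deletion the labels state, averaged 5.02 ± 1.49 CPM in mutants and 40.1 ± 4.41 in wild type (SD, n = 4 each; edgeR adjusted p = 3.76e-05). Hoxa2 averaged 26.7 ± 15.7 and 43.2 ± 11.0 CPM (edgeR adjusted p = 0.506). Markers of the Atoh1 lineage and of neurons summed to 6608 to 8581 CPM in mutants and 6419 to 7923 in wild type, and 1 of 15 was lower in mutants. The summed markers of inhibitory neurons (45.0 to 104.9 against 31.8 to 59.2 CPM), astrocytes, oligodendrocytes, microglia, endothelium, red blood cells and meninges overlapped between the groups as well, with 1 of 4 tested microglia genes lower. Hba-a1 and Hba-a2, which encode alpha globin, were at 0 in every library. The summed red blood cell markers were at 5.13 to 6.91 CPM in mutants and 4.63 to 10.6 in wild type. How reads with several matches were counted is not stated, so these values of 0 are not read as absence. In bulk RNA of sorted cells, fewer cells expressing a gene and less RNA per cell cannot be told apart.

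Zfp990 was well detected in wild type and nearly lost in mutants. Mutant 1 to 4 had 3, 5, 2 and 3 counts, and wild type 5 to 8 had 115, 102, 81 and 133. The wild type levels were 2.96, 3.97, 2.32 and 3.37 CPM, and the mutant levels were 0.0982, 0.197, 0.0389 and 0.0810 CPM. Every wild type library was far above every mutant library, and 3 of the mutant libraries were at or under a floor of 3 counts. The means were 3.15 ± 0.696 CPM in wild type and 0.104 ± 0.0669 in mutants (SD, n = 4 each), a fitted log2 fold change of -5.02 (SE 0.41). Over summed counts, 431 against 13, the level per library size was 34.4 times higher in wild type, with an exact 95% interval of 19.9 to 65.2 that covers counting error only. Among the 19494 tested genes this was the third lowest log2 fold change.

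Zfp984 showed the opposite pattern. Mutants had 147, 97, 272 and 141 counts, and wild type libraries had 24, 11, 66 and 21. These correspond to 4.81, 3.82, 5.28 and 3.81 CPM in mutants and 0.617, 0.428, 1.89 and 0.532 CPM in wild type. The groups did not overlap, and wild type 7 lay between the other wild type libraries and the mutants. The means were 4.43 ± 0.738 CPM in mutants and 0.866 ± 0.685 in wild type, with a log2 fold change of 2.34 (SE 0.41). It was 2.14 to 3.06 with single libraries left out, the highest without wild type 7.

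Zfp979, the nearest member to Zfp984 and on the same strand, with Zfp534 and other genes between them, was likewise higher in mutants. Its level was lower. Its counts were 24, 44, 54 and 37 in mutants and 11, 4, 11 and 7 in wild type. In CPM, mutants had 0.786, 1.73, 1.05 and 0.999, and wild type libraries 0.283, 0.156, 0.315 and 0.177. The groups did not overlap. The means were 1.14 ± 0.410 and 0.233 ± 0.0779 CPM, with a log2 fold change of 2.25 (SE 0.40), and 2.00 to 2.43 with single libraries left out.

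Zfp992 had the most reads of all members, with 1567 counts over the 8 libraries, and its groups overlapped. Mutants had 277, 167, 298 and 192 counts (9.07, 6.58, 5.79 and 5.19 CPM). Wild type libraries had 133, 80, 244 and 176 counts (3.42, 3.12, 6.98 and 4.45 CPM). Wild type 7 exceeded 3 of the 4 mutant libraries. The means were 6.66 ± 1.71 CPM in mutants and 4.49 ± 1.75 in wild type, with a log2 fold change of 0.56 (SE 0.27). This value was 0.86 without wild type 7, and 0.04 with 3 libraries left out (mutant 1 and wild types 5 and 6) that stood apart from their groups in an earlier analysis of these counts.

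**Figure D3:**
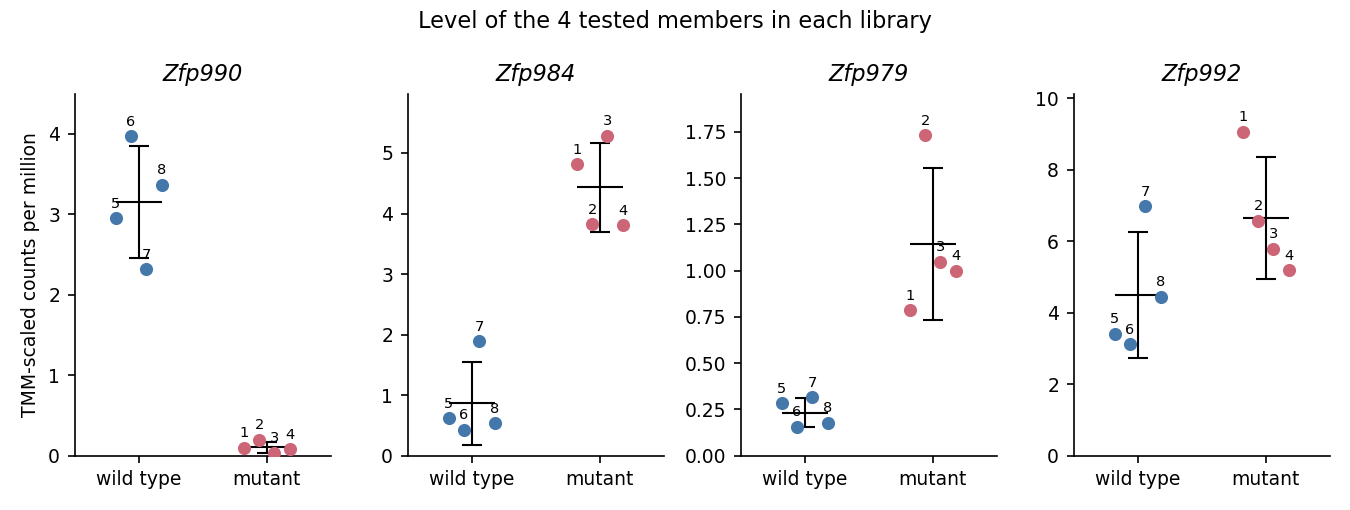
TMM-scaled CPM of the 4 tested members in each library (points, with the library's number), with the group mean and SD (lines), each gene on its own linear axis. Zfp990 is at 2.32 to 3.97 CPM in wild type and at most 0.197 in mutants, while Zfp984 and Zfp979 are higher in every mutant library than in any wild type library.

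The remaining 6 members did not pass the filter on low counts, and no group mean among them was above 0.253 CPM. Zfp981 had 6, 6, 16 and 10 counts in mutants and 1, 7, 4 and 17 in wild type. Zfp982 had 11, 6, 10 and 4 in mutants and 8, 5, 8 and 7 in wild type. Both overlapped between the groups, and for Zfp982 the ratio of summed counts per library size was 1.07 (exact 95% interval 0.619 to 1.84). Zfp985 had 10, 4, 6 and 8 counts in mutants and 1, 8, 0 and 1 in wild type, overlapping because of wild type 6. Zfp987 had 6, 0, 23 and 3 counts in mutants and 1, 1, 4 and 1 in wild type, with most of the mutant reads in mutant 3. For Zfp988, 3, 1, 9 and 1 counts stood against 0, 0, 0 and 1. Zfp986 had a single count, in mutant 2, so its wild type level can be put only under a floor of 3 counts per library, 0.0759 to 0.117 CPM. All 6 had the higher mean in mutants, Zfp986 by its single count, and nothing is read from this direction. Among all tested genes, 9441 of 19494 had a log2 fold change above 0. For Zfp986, Zfp987 and Zfp988 most windows occur in other genes too, so the counts of the trio cannot be told apart gene by gene.

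In all, 3 of the 10 members (Zfp979, Zfp984 and Zfp988) had every mutant library above every wild type library, and 1 (Zfp990) had every mutant library below. Zfp988 had too few counts for a firm reading, as its separation rests on 1 count. It is also not a tested gene, and among the 4 tested members 2 were wholly higher and 1 wholly lower. Among all tested genes, the groups did not overlap for 6.17%, 3.23% upward and 2.94% downward. Of the 4 members tested, 3 passed the threshold (Zfp979 and Zfp984 higher, Zfp990 lower), where 0.359% of all tested genes did, 0.144% higher and 0.215% lower. The same 3 had a log2 fold change of at least 2 in size, as did 0.256% of all tested genes. As this comparison led to the choice of members, nothing is read from these counts. With mutant 2, 3 or 4 or wild type 5, 6 or 8 left out, only Zfp990 passed. The same held with mutant 1 and wild types 5 and 6 all left out. The median over all tested genes was a log2 fold change of -0.01.

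Levels of different genes can be compared only per length, and here CPM were divided by the deposited length in kilobases. Private windows of 50 bases ran from 11.0% in Zfp987 to 88.1% in Zfp982. The order can therefore depend on how reads with several matches were counted, which is not stated and was not tested. In wild type the order was Zfp992 (0.987 ± 0.386 CPM per kilobase) and Zfp990 (0.901 ± 0.199), which did not differ beyond their spread. Zfp984 (0.297 ± 0.235) and Zfp982 (0.136 ± 0.0145) followed, with the remaining 6 below 0.07. In mutants the order was Zfp984 (1.52 ± 0.253) and Zfp992 (1.46 ± 0.375), again within their spread, then Zfp979 (0.278 ± 0.0998) and Zfp982 (0.151 ± 0.0705), with Zfp990 at 0.0297 ± 0.0191. By this measure Zfp992 was among the 2 highest members in both groups, and the other of the 2 was Zfp990 in wild type and Zfp984 in mutants.

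Sums over members keep reads that move between members, but not reads shared with genes outside the sum. Of the windows of Zfp984, 53.4% occur in non-members and 6.19% in other members, and for Zfp992 these shares were 41.9% and 4.64%. The partners Gm13212, Znf41-ps and Gm8935 are in neither of the first 2 sums given here, so part of the shared reads can lie outside them. Over all 10 members the sum was 15.9, 13.0, 13.4 and 10.8 CPM in mutants and 7.56, 8.49, 11.96 and 9.21 in wild type. These overlapped, with wild type 7 above mutant 4, at means of 13.3 ± 2.12 and 9.30 ± 1.89 CPM and a log2 ratio of 0.51. With the other 8 zinc finger symbols of the span added, the sums were 21.9 ± 3.32 and 14.9 ± 2.49 CPM, a log2 ratio of 0.55, still overlapping. Without Zfp990 the other 9 members summed to 13.2 ± 2.12 CPM in mutants and 6.15 ± 2.40 in wild type, and the groups did not overlap. Zfp990 was the only member with a lower mean in mutants, so leaving it out could only raise the ratio. Nothing is read from this separation.

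Each member's share of the members' counts shows the shift in composition. Zfp990 took 19.4% to 46.8% of them in wild type (median 37.8%) and 0.290% to 1.51% in mutants (median 0.684%). Zfp984 took 5.05% to 15.8% in wild type (median 6.97%) and 29.3% to 39.4% in mutants (median 32.8%). Zfp979 took a median of 2.28% and 8.55%. Zfp992 kept a like share, with a median of 46.8% in wild type and 49.3% in mutants. A share falls when another rises, so these values are not independent of each other.

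**Figure D4:**
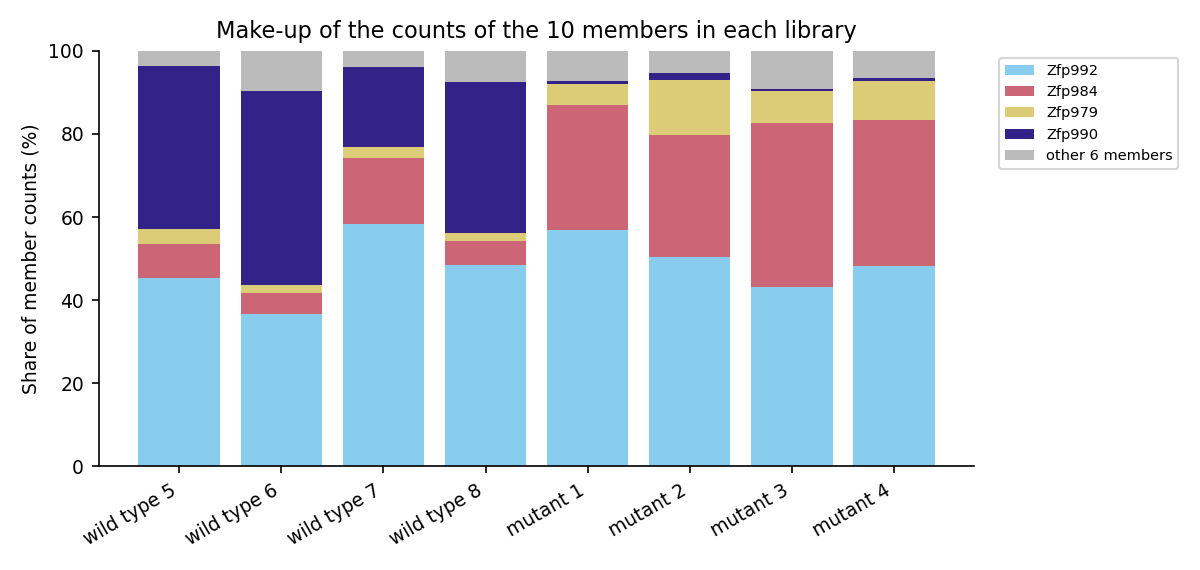
Percent of all counts of the 10 members taken by each member, per library. Zfp990 takes 19.4% to 46.8% in the 4 wild type libraries and at most 1.51% in the mutants, where Zfp984 takes 29.3% to 39.4%, and Zfp992 takes a large share in both.

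The closest sequence partners were then set beside the members. Gm13212 had 18, 10, 52 and 20 counts in mutants and 5, 17, 9 and 12 in wild type (edgeR adjusted p = 0.459), and its mean was higher in mutants, as that of Zfp984 was. Zfp984 and Gm13212 together were at 5.07 ± 0.977 CPM in mutants and 1.20 ± 0.644 in wild type, without overlap. The log2 ratio of this sum was 2.07, beside 2.34 for Zfp984 alone. For Zfp992, the sum with Zfp991 was 13.7 ± 2.97 CPM in mutants and 8.17 ± 2.34 in wild type (log2 ratio 0.74), overlapping as Zfp992 did alone. Reads lost because they match several places would be missing from every one of these sums, and their part was not tested.

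The spread within groups differed between members. In wild type the highest library of Zfp984 was 4.41 times the lowest, against a median of 1.65 over 1749 tested genes of like level. In mutants the ratio was 1.39, against 1.8. For Zfp992 the ratios were 2.24 in wild type and 1.75 in mutants (like genes 1.51 and 1.61), and for Zfp979 they were 2.02 and 2.21, both under those of like genes (2.32 and 2.49). The spread of Zfp990 was 1.71 in wild type, near the 1.82 of like genes. Its ratio of 5.07 in mutants is of counts between 2 and 5.

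Wild type 7 was the highest wild type library for Zfp984, Zfp979 and Zfp992 and the lowest for Zfp990. Wild type 6 was the lowest for the first 3 and the highest for Zfp990. Over the 8 libraries, log2 CPM of Zfp984 and Zfp990 had a Pearson r of -0.94, and of -0.60 after each group's mean was removed. For Zfp984 and Zfp992 r was 0.82, and 0.78 within groups. For Zfp984 and Zfp979 it was 0.91, and 0.41 within groups. These describe 8 libraries whose group difference helped to choose the genes, and the genes share reads, depth and scaling within each library.

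The promoters of the members were compared next. RefSeq (GRCm38.p6) gives a promoter for 7 of the 10 members, with none for Zfp986, Zfp990 and Zfp992. For Zfp982 it gives more than 1. Only that at chr4:147492167-147492416 was used, because the bases after its start lie in a GENCODE transcript. The 250 bases before the start are shown, on the gene's strand, for Zfp984 at chr4:147809789-147810038 (minus), Zfp979 at chr4:147642509-147642758 (minus) and Zfp985 at chr4:147553027-147553276 (plus). The first 2 were higher in mutants, and Zfp985, with overlapping groups, is the member nearest to Zfp979. Capitals mark a stretch of 15 bases that all 7 promoters used hold unchanged.

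Zfp984: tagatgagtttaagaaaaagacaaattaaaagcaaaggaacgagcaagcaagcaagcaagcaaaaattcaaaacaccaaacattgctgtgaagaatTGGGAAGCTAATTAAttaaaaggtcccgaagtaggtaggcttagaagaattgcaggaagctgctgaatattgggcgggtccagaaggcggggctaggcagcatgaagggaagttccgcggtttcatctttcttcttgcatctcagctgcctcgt

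Zfp979: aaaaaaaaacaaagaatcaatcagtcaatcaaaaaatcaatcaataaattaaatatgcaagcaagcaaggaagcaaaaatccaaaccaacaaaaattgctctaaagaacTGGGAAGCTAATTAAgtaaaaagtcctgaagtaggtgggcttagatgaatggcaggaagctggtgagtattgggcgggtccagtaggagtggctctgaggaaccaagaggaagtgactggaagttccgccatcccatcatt

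Zfp985: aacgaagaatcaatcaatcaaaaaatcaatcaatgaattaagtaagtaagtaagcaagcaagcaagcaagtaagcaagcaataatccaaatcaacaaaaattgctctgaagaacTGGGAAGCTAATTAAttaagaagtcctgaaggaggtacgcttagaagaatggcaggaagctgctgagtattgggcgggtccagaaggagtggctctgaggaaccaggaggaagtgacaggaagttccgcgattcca

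The shared stretch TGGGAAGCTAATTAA was found by searching the members, and it occurs on either strand in 12 of 32851 mouse promoters of this length (0.0365%). All 12 are on chromosome 4, and their genes are Zfp979, Zfp980, Zfp981, Zfp982, Zfp984, Zfp985, Zfp987, Zfp988, Zfp534, Zfp600, Rex2 and Gm13212. They include members whose groups did not overlap (Zfp984, Zfp979 and, by 1 count, Zfp988) and members whose groups did (Zfp981, Zfp982, Zfp985, Zfp987). Zfp986, Zfp990 and Zfp992 had no promoter to search, so whether they hold the stretch was not tested. The Zfp982 promoters left out are not among the 12. The stretch contains TAATTA, the core bound by many homeodomain proteins, which by itself occurs in 4.84% of all promoters. GGGCGG, the GC box bound by Sp1, occurs in 6 of the 7 (not Zfp987) and in 32.7% of all promoters. These are matches of letters only.

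The 7 promoters used were 82.7% to 95.8% identical in pairs (median 87.9% over 21 pairs), over 199 to 248 aligned bases. Zfp984 and Zfp979, both higher in mutants, were 83.2% identical, near the lowest pair. Zfp985, with overlapping groups, was 91.0% identical to Zfp979 and 85.1% to Zfp984. The 7 promoters used held 36.8% to 43.6% G and C, below the median of 52.4% over all promoters. CG dinucleotides are the sites of DNA methylation, and the median promoter has 6. They numbered 7 in Zfp984, 5 in Zfp985, 3 in Zfp981 and Zfp982, 2 in Zfp979 and Zfp987 and 1 in Zfp988. The Zfp982 promoters left out held 11 (52.4% G and C) at chr4:147442864 and 2 (44.0%) at chr4:147500436.

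Genes of the span that are not members were tested in the same fit. Of 75, 19 passed the filter and 0 passed the threshold in edgeR, with 4 at an unadjusted p below 0.05 and 2 (Zfp991 and Znf41-ps) passing in DESeq2. Over all tested genes 12.5% were at an unadjusted p below 0.05 and 2.77% passed in DESeq2. The 19 had a median log2 fold change of -0.14, and 9 of them were above 0, as were 9441 of all 19494 tested genes.

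The other zinc finger genes of the span include Zfp991, the closest partner of Zfp992 by shared windows. It was at 8.61, 7.56, 6.08 and 5.86 CPM in mutants and 2.96, 3.66, 4.55 and 3.57 in wild type. The groups did not overlap, at means of 7.03 ± 1.30 and 3.68 ± 0.656 CPM. The log2 fold change of 0.93 (SE 0.20) had an edgeR adjusted p of 0.0884, which ranged from 0.00140 to 0.348 over 14 alternative settings. Zfp980 was lower in every mutant library, at 1.11 ± 0.240 against 1.59 ± 0.0684 CPM (log2 fold change -0.53, edgeR adjusted p = 0.430, 0.364 to 0.766 over the alternatives). Zfp600, Zfp993, Zfp978 and Zfp534 had too few counts to be tested, and Rex2 and Zfp989 had 0 counts in every library. Znf41-ps, at 5.53 and 3.15 CPM, had a log2 fold change of 0.81 (edgeR adjusted p = 0.225), and over the 8 libraries its r with Zfp991 was 0.95.

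Outside the span, the 25 nearest named coding genes on each side gave 31 tested genes. Of these, 7 lay before the cluster and 24 after it, so nothing is read from the side of a call. In edgeR 0 passed, with 8 at an unadjusted p below 0.05, and DESeq2 called 3 (Disp3, Fbxo44 and Miip), all after the cluster. Their median log2 fold change was -0.01. The 2 nearest genes before Zfp990, Tnfrsf8 and Tnfrsf1b, both receptors of the tumour necrosis factor family, had too few counts to be tested. The 2 nearest after Zfp984 were Zfp933 and Miip, which encodes a protein named as an inhibitor of migration and invasion. Zfp933 was at 13.5 ± 2.22 CPM in mutants and 12.9 ± 2.07 in wild type (edgeR adjusted p = 0.910). Miip was at 11.1 ± 2.89 against 5.99 ± 0.736 CPM without overlap, a log2 fold change of 0.89 (SE 0.20) with an edgeR adjusted p of 0.0982 that ranged from 0.00312 to 0.273 over the alternatives.

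**Figure D5:**
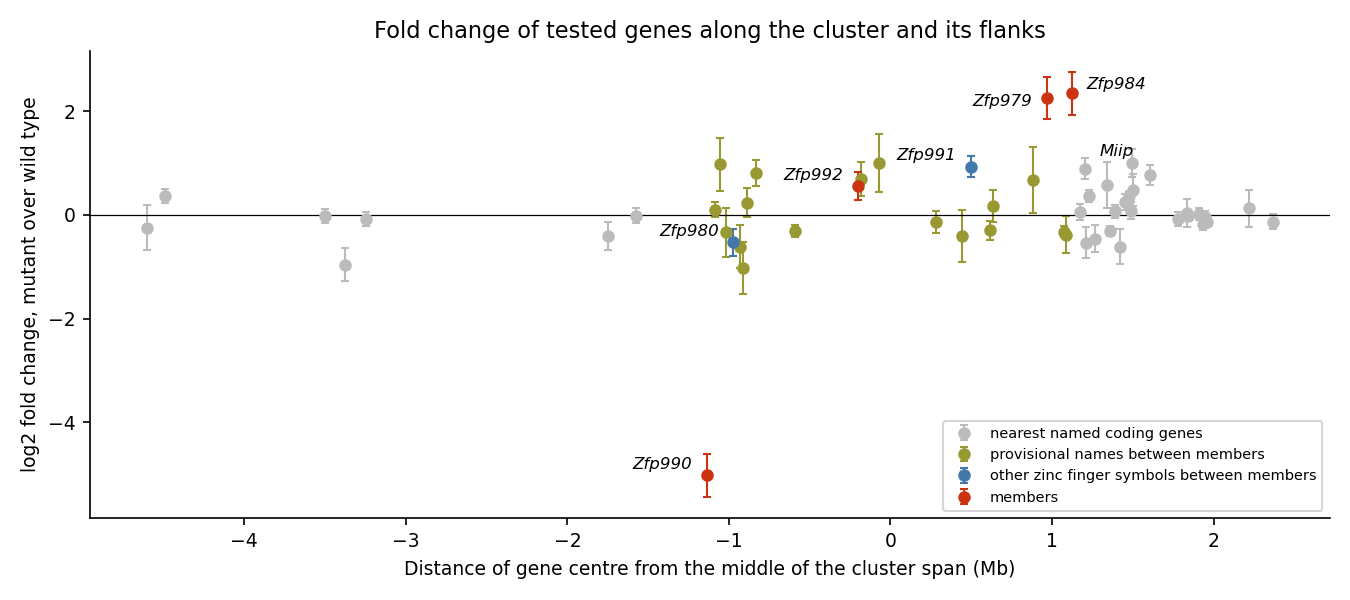
Fitted log2 fold change (mutant over wild type) with its SE for each tested gene of the span and its flanks, by distance of the gene's centre from the middle of the span. Zfp990 lies at -5.02 near one end, Zfp984 and Zfp979 lie above 2 near the other, and the tested genes between them lie between -1.03 and 1.01, Zfp992 at 0.56 among them.

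Zinc finger genes elsewhere in the genome, taken by symbol alone, served as a comparison. Whether they belong to the KRAB class was not checked. Of 354 with a Zfp symbol, 325 were tested and 0 passed in edgeR, with 25 at an unadjusted p below 0.05 (13 higher, 12 lower) and 4 called by DESeq2 (Zfp212, Zfp503, Zfp868 and Zfp941). Their median log2 fold change was 0.01, and 171 of 325 were above 0, beside 9441 of all 19494 tested genes. The 2 with the smallest p were Zfp868, at 45.5 ± 4.08 CPM in mutants and 65.0 ± 7.83 in wild type (log2 fold change -0.51, edgeR adjusted p = 0.101, 0.0124 to 0.326 over the alternatives), and Zfp503. Zfp503, a transcriptional repressor of the developing brain, was at 29.2 ± 16.3 and 77.8 ± 17.6 CPM (log2 fold change -1.42, edgeR adjusted p = 0.146, 0.000725 to 0.359 over the alternatives). It passed without mutant 1, at an edgeR adjusted p of 0.000884.

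The machinery that KRAB zinc finger proteins recruit was covered by a list of 33 genes for TRIM28, its partners and DNA methylation. Of 32 tested, 0 passed in edgeR, 3 had an unadjusted p below 0.05 (1 higher, 2 lower) and DESeq2 called 0. The median log2 fold change was -0.05, and 10 of 32 were above 0, beside 9441 of all 19494 tested genes. Trim28 itself was at 186 ± 24.3 CPM in mutants and 269 ± 73.1 in wild type (log2 fold change -0.53, SE 0.18, edgeR adjusted p = 0.277, 0.111 to 0.675 over the alternatives). Setdb1, the histone H3 lysine methyltransferase that TRIM28 recruits, was at 76.4 and 75.5 CPM (edgeR adjusted p = 0.953). Chaf1b, a subunit of the chromatin assembly factor, was at 7.25 ± 1.96 and 11.9 ± 3.83 CPM (log2 fold change -0.72, edgeR adjusted p = 0.299, 0.0905 to 0.717 over the alternatives).

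The genes whose pattern over the 8 libraries was most like that of Zfp984, among 14053 outside the span, were Gramd4 (r 0.985, chromosome 15), Slc27a3 (0.970, chromosome 3), Epb41l4b (0.967, chromosome 4), Clcf1 (0.958, chromosome 19) and Zmynd8 (0.954, chromosome 2). Like Zfp984, all 5 had wild type 7 as the highest wild type library. Epb41l4b, which encodes a cytoskeletal protein of the FERM family, was at 54.0 to 74.5 CPM in mutants, 37.4 in wild type 7 and 24.1 to 24.3 in the other wild type libraries. Being the highest of so many correlations, these values describe the libraries and carry no test.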

How the data were processed

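The authors deposited raw counts for each Ensembl gene, not normalized, with a gene length. The submitters' processing notes name the build mm10 and bcl2fastq 1.8.4. The aligner, the counter and the handling of reads with several matches are not given in the sources used here. Per the labels' protocols, libraries were made with the TotalScript kit from 2 ng RNA, poly-A and random primers and 14 PCR cycles, and run on 3 lanes of a HiSeq2500.

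Symbols and positions came from GENCODE M21 (37607 of 39017 genes matched). Counts were filtered with filterByExpr, scaled by TMM and tested in edgeR 4.0.16 (R 4.3.3) with the quasi-likelihood F test, 4 against 4 libraries, with Benjamini-Hochberg adjustment. The SE of a log2 fold change is its size over the square root of F. The procedure was tested on simulated data. DESeq2 1.42.0, other scalings and filters and left-out libraries were alternatives. The biological coefficient of variation was 23.2%. Intervals and floors of 3 counts cover counting error only. Coding sequences were aligned in Biopython 1.88, as nucleotides in place of the planned protein comparison. Like-level genes are within 0.5 of the member's mean log2 CPM. Correlations use log2 CPM with a prior count of 2. Members and lists were chosen with earlier results of these data known. Named genes are all members, Zfp symbols of the span and, where none passed, the 2 nearest or smallest-p genes of each list and the 5 most like Zfp984 (mean log2 CPM of at least 1). Others, such as the sequence partners, were named after their values were seen.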

Additional observations from a re-analysis of the deposited data

Results flagged for a closer look

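Zfp984 in wild type 7 was far from the other wild type libraries, at 1.89 CPM against 0.428 to 0.617. The gap to the nearest library was 0.871 of the group's range, above Dixon's 95% critical value for 4 samples. Of 12 groups checked, this was the 1 that passed. Chance lets about 1 in 20 single groups pass, so 1 among 12 can arise by chance. Without wild type 7 the log2 fold change of Zfp984 was 3.06.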

How the results depend on the processing

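Over all tested genes 70 passed; 497 did with DESeq2, 214 with no filter on low counts, 171 with 3 libraries out (mutant 1 and wild types 5 and 6), and 26 to 544 with single libraries left out (544 when mutant 1 was out, 33 for mutant 2, 36 for mutant 3, 26 for mutant 4, 36 for wild type 5 and 32 for wild type 8). Of the members 3 passed, 1 (Zfp990) with at least 1 CPM in 4 libraries required, where 3 were tested, 1 without the 3 libraries and 1 to 3 with single libraries left out. The 0 non-members of the span became 2 with DESeq2 and 1 (Zfp991) with no filter. The 0 nearest genes became 3 with DESeq2, 2 (Disp3 and Miip) with no filter and 0 to 1 with single libraries left out (Pdpn without mutant 1). The 0 zinc finger genes elsewhere became 4 with DESeq2, 1 (Zfp503) without the 3 libraries and 0 to 4 with single libraries left out (4 without mutant 1). The silencing list stayed at 0 in all 14 alternatives. The cause of these differences was not tested.

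The log2 fold change of Zfp984 was 1.85 without the 3 libraries, and that of Zfp990 was -5.45 without mutant 2; neither these nor Zfp979 changed direction in any alternative. Values near 0 changed sign: Zfp933 to -0.0056 with library size only, -0.0027 without the 3 libraries and -0.056 without mutant 4 (-0.056 to 0.18 with single libraries left out), and Setdb1 to -0.041, -1.7e-06 and, without wild type 6, -0.0051 (-0.0051 to 0.039). The log2 ratio of the members' sum was 0.42 to 0.66, and with the other zinc finger symbols 0.45 to 0.67, with single libraries left out. The median share of private windows went from 58.5% to 74.97% with 100 bases. No paired analysis was possible because the count columns carry running numbers and not the replicate numbers of the sample titles. Depth limits the 6 members that were not tested, where 3 counts correspond to 0.0583 to 0.118 CPM.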

Other observations

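Among the gene models with provisional names in the span, 17 of 67 were tested. Gm13136 was at 25.5 ± 0.884 CPM in mutants and 31.9 ± 2.19 in wild type, and Gm13034 was at 27.0 ± 0.847 and 33.6 ± 3.60 CPM. Both were lower in every mutant library, with edgeR adjusted p of 0.256 and 0.293. These 2 lay far above any member in CPM, which is not a comparison per length. Fv1, a retrovirus restriction gene among the nearest genes after the cluster, was at 2.53 ± 0.830 and 3.64 ± 1.14 CPM (edgeR adjusted p = 0.487).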
